A study of Homo sapiens with 2 samples.

Results

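Chromosome 19 carries 246 protein-coding genes with the plain zinc finger symbol ZNF and a number, and these are described here, out of 19821 protein-coding genes on chromosomes 1 to 22 and X. They were taken by symbol (ZNF, digits and at most 1 letter) and by chromosome from the RefSeq gene table of GRCh38.p14, which is the build hg38, without any use of measured values. Of these genes, 83 lie on the short arm (19p) and 163 on the long arm (19q). The measurements were PRO-cap start calls from 2 biological replicates of HUDEP-2 (wild-type, no treatment), a line of immortalised erythroid progenitors of human origin. PRO-cap is a run-on assay that labels nascent RNA in isolated nuclei and reads it from its 5' end, so each call marks a base at or near which transcription began. The deposited set held 26395 calls (13229 forward and 13166 reverse), of which 2076 lay on chromosome 19. The calls name no replicate and carry no read count, so a gene is called or not called, no spread between replicates can be given, and intervals in the text are 95% Wilson intervals that cover counting error only.

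Most genes of this kind encode proteins with a row of C2H2 zinc fingers that bind DNA, and many also carry a KRAB domain, which recruits the corepressor TRIM28 and through it histone methylation and silencing. Their best known targets are endogenous retroviruses and other transposable elements, and the genes arose by repeated local duplication, so that neighbours are often close copies of each other. For that reason neighbouring genes are not independent observations, and near-identical copies are uncertain wherever short reads could match several of them. How reads with several matches were treated is not given in the sources used here.

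A start was counted as called when a PRO-cap call pointed into a gene from no more than 500 bp to either side of its end. By this rule 140 of the 246 ZNF genes had a called start, or 56.9% (50.7 to 62.9%). The share over all protein-coding genes was 41.4%. The other protein-coding genes of chromosome 19 were called in 520 of 1164 cases (44.7%), which is 12.2 percentage points less than the ZNF genes (95% Newcombe interval of the difference, 5.36 to 18.9). The ZNF genes of other chromosomes were called in 152 of 263 cases (57.8%), and the interval of the difference from those on chromosome 19 ran from -9.42 to 7.65 points. Of the 23 C2H2 genes on chromosome 19 with other names (such as ZSCAN or ZFP), 7 were called (30.4%, 15.6 to 50.9%).

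The arms of the chromosome differed in the share of ZNF genes called. On 19p 29 of 83 genes were called (34.9%, 25.6 to 45.7%), and on 19q 111 of 163 (68.1%, 60.6 to 74.8%), a difference of 33.2 points with an interval of 20.1 to 44.7. The other protein-coding genes went the other way, with 284 of 524 called on 19p (54.2%) and 236 of 640 on 19q (36.9%). The lowest share belonged to a single cluster of 37 genes next to the centromere on 19p, of which 7 were called. Without that cluster 22 of 46 genes on 19p were called (47.8%, 34.1 to 61.9%), and 19q remained higher by 20.3 points (4.36 to 35.5).

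The promoters below are shown because the arms also differed in the sequence in front of their genes, and because called and uncalled genes of the pericentromeric cluster have similar letters there. ZNF91, a repressor of SVA retrotransposons, and ZNF93, a repressor of LINE-1 elements, lie in that cluster and had no call in or near the gene, whereas ZNF429 and ZNF431 of the same cluster had a call on their annotated first base. ZNF224, first described as a repressor of the aldolase A gene, and ZNF808, a gene needed for pancreas development, lie on 19q and were also called on their annotated first base. The RefSeq sequences of GRCh38.p14 run 5' to 3' on the gene's strand from 150 bases before the annotated start to 20 bases from it, with each CG dinucleotide in capitals. They are ZNF91 at chr19:23395452-23395621 (minus strand), ZNF93 at chr19:19900796-19900965 (plus), ZNF429 at chr19:21505452-21505621 (plus), ZNF431 at chr19:21141890-21142059 (plus), ZNF224 at chr19:44094211-44094380 (plus) and ZNF808 at chr19:52527518-52527687 (plus).
ZNF91: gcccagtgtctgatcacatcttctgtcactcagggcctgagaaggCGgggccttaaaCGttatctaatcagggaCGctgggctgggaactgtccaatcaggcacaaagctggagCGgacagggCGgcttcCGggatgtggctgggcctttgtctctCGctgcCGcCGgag
ZNF93: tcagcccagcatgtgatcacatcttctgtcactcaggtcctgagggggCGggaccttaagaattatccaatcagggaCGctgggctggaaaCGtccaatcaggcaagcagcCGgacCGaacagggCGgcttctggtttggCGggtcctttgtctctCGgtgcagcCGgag
ZNF429: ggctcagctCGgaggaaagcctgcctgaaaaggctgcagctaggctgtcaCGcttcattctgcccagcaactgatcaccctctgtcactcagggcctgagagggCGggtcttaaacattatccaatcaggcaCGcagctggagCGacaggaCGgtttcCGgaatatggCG
ZNF431: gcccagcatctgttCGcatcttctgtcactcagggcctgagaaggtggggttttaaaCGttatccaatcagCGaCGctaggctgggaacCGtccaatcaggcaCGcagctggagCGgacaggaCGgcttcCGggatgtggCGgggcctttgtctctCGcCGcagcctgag
ZNF224: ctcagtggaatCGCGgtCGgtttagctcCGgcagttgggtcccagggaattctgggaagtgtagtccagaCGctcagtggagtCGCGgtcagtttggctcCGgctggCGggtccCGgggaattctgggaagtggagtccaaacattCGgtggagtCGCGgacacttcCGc
ZNF808: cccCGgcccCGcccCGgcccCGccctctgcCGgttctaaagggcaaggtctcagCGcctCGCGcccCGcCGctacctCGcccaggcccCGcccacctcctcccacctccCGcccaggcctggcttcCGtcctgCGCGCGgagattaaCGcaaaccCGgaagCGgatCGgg

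In these 170 bases ZNF91 and ZNF93 had 9 CG dinucleotides each, ZNF429 had 8, ZNF431 had 12, ZNF224 had 14 and ZNF808 had 21. By count, the uncalled ZNF91 and ZNF93 therefore held no fewer than the called ZNF429. This count makes no allowance for C and G content. The ratio of CG dinucleotides to the number given by that content was read in the wider promoter windows described below. It was 0.45 for ZNF91 and 0.43 for ZNF93, and higher in the called ZNF429 (0.47) and ZNF431 (0.55). Elsewhere in the cluster this order was not always kept, with 0.38 for the called ZNF714 and 0.71 for the uncalled ZNF726. All 6 genes with printed sequences share 31-letter words with the promoter of another gene, 21 words for ZNF91, 17 for ZNF93, 6 for ZNF429, 33 for ZNF431, 6 for ZNF224 and 27 for ZNF808.

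Runs of neighbouring ZNF genes with at most 500 kb between them and at least 5 members were taken as clusters, which gave 4 clusters on 19p and 6 on 19q with 232 of the 246 genes. They are numbered from the 19p telomere within each arm. Cluster shares on 19p were 2 of 5 genes in 19p-1 (40.0%), 8 of 13 in 19p-2 (61.5%, 35.5 to 82.3%), 10 of 25 in 19p-3 (40.0%, 23.4 to 59.3%) and 7 of 37 in 19p-4 (18.9%, 9.48 to 34.2%). On 19q they were 2 of 5 in 19q-1 (40.0%), 19 of 26 in 19q-2 (73.1%, 53.9 to 86.3%), 17 of 23 in 19q-3 (73.9%, 53.5 to 87.5%), 25 of 39 in 19q-4 (64.1%, 48.4 to 77.3%), 10 of 16 in 19q-5 (62.5%, 38.6 to 81.5%) and 30 of 43 in 19q-6 (69.8%, 54.9 to 81.4%). The 5 larger 19q clusters overlapped in their intervals, as did 19p-2 and 19p-3, and the interval of 19p-4 lay below those of the 5 larger 19q clusters. Other protein-coding genes that lie inside the clusters were called in 4 of 21 cases on 19p (19%, 7.67 to 40.0%) and in 17 of 70 on 19q (24.3%, 15.8 to 35.5%), so inside the 19q clusters the ZNF genes were called more often than the genes among them.

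**Figure D1:**
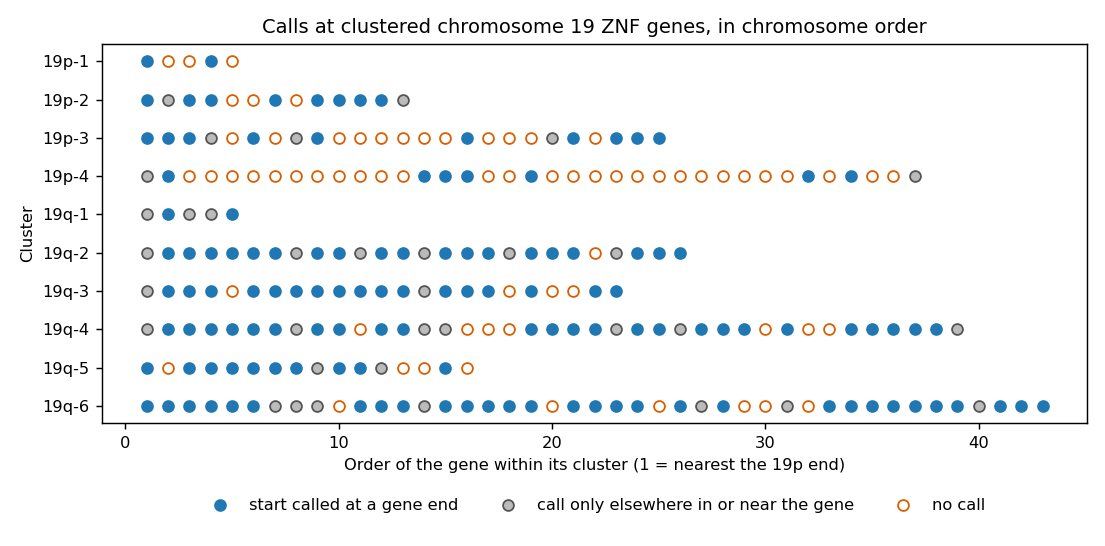
The 232 clustered ZNF genes, 1 row of circles per cluster and 1 circle per gene in chromosome order (horizontal axis, place of the gene within its cluster), marked by a start call at a gene end, a call elsewhere in or near the gene, or no call. Open circles fill most of 19p-4, where 28 of 37 genes had no call.

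**Figure D2:**
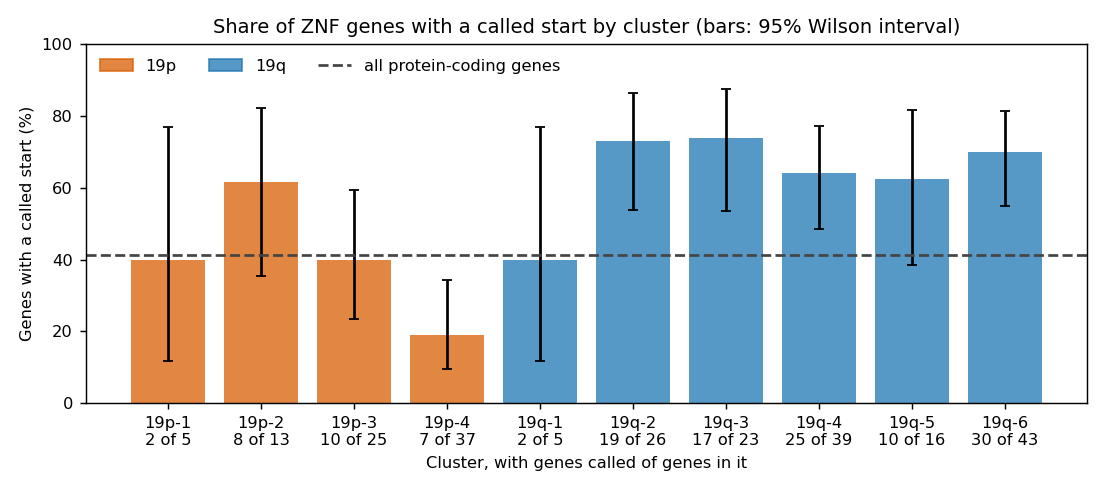
Share of ZNF genes with a called start (vertical axis, percent) in each of the 10 clusters, coloured by arm, with 95% Wilson intervals as error bars and the share over all protein-coding genes (41.4%) as a dashed line. The 19p-4 bar stands at 18.9% and the 5 larger 19q bars between 62.5% and 73.9%.

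Cluster 19p-4 spans 19.7 to 24.1 Mb. Its 7 called genes were ZNF14, ZNF714, ZNF431, ZNF708, ZNF429, ZNF724 and ZNF675. The calls of ZNF431 (position 21142040) and ZNF429 (position 21505602) lay on the annotated first base, and those of ZNF708 and ZNF714 lay 1 and 32 bp outside the gene. Those of ZNF14, ZNF675 and ZNF724 lay 3, 35 and 73 bp inside it. Each of the 7 genes had this 1 call and no other call in or within 500 bp of the gene. The uncalled genes included ZNF506, ZNF253 and ZNF93 near the telomeric end and ZNF91, ZNF43, ZNF85 and ZNF208 further in, all without any call in or near the gene. In all, 28 of the 37 genes were without any call. They lay in long runs, with 11 consecutive ZNF genes from ZNF506 to ZNF430 (1.27 Mb) and 12 from ZNF100 to ZNF730 (1.42 Mb) lacking a call of any kind. The first and the last gene of the cluster, ZNF101 and ZNF254, had no call at their ends but 1 at a later listed transcript start. For ZNF101 that start lies 0.686 kb into the gene, and for ZNF254 it lies 53.7 kb in, with the call 6 bp downstream of it.

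Stretches shared with other promoters were frequent in the same cluster. Of its 29 genes with a listed promoter window (250 bases before to 50 after a start), 26 shared a word of 31 letters with the promoter of another gene. The number of shared words ran from 3 to 39 with a median of 16. Words shared with different genes are counted together, so the number does not give the length of a shared stretch. Of those 26 genes 6 were called, and of the other 3 genes 1 was called. Over both arms, genes with such a shared word were called in 22 of 50 cases (44%, 31.2 to 57.7%) and genes without one in 105 of 166 (63.3%, 55.7 to 70.2%). On 19q 13 of 16 genes with a shared word were called. Among genes without a shared word the arms differed by 15.6 points, with 20 of 39 called on 19p (51.3%) and 85 of 127 on 19q (66.9%), and the interval of that difference (-1.50 to 32.5, 19q minus 19p) included 0. That comparison leaves out genes with no listed window, and it was chosen after the values were seen. When only genes that share a word with another of the 246 were left out, the arms differed by 24.7 points, with 21 of 50 called on 19p (42%) and 98 of 147 on 19q (66.7%). The part that reads with several matches play in the low share of 19p-4 was not tested.

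The rest of 19p was called more often. In 19p-1 (2.82 to 2.94 Mb) ZNF554 was called 18 bp inside its end, with a divergent partner 179 bp upstream, and ZNF57 was called 41 bp inside. ZNF555, ZNF556 and ZNF77 of that cluster had no call. In 19p-2 (8.51 to 9.79 Mb) the calls of ZNF317 and ZNF121 lay 1 bp outside the annotated end, and that of ZNF699 lay farthest from it, 128 bp inside. ZNF699 had a second call 239 bp outside, and ZNF414, the first gene of the cluster, had calls 45 and 360 bp inside. The 5 uncalled genes of 19p-2 were ZNF558, ZNF559, ZNF177, ZNF560 and ZNF846. Of these, ZNF558 and ZNF846 had a call at a listed transcript start, 5.84 and 17.4 kb into the gene, and ZNF559, ZNF177 and ZNF560 had no call in or near the gene.

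In 19p-3 (11.5 to 12.6 Mb) called and uncalled genes were interspersed. ZNF627, ZNF443 and ZNF490 were called on their annotated end base. ZNF653 opened the cluster with a call 57 bp inside, the farthest among its called genes, and ZNF791 closed it with a call 15 bp inside. ZNF441, ZNF491, ZNF439 and ZNF69 were the first of 15 uncalled genes, and 6 consecutive genes from ZNF763 to ZNF625 had no call of any kind.

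Among genes without a start call, another call lay in or near the gene more often on 19q than on 19p. Such a call can also belong to an overlapping or adjacent gene, as with ZNF146 inside ZNF565 and ZNF28 inside ZNF600. Of the 52 uncalled genes on 19q 23 had no call in or within 500 bp of the gene (44.2%, 31.6 to 57.7%), against 47 of 54 on 19p (87%, 75.6 to 93.6%). With calls anywhere in the gene or up to 500 bp around it counted, 140 of 163 genes were marked on 19q (85.9%) and 36 of 83 on 19p (43.4%), together 176 of 246 (71.5%), where the share over all protein-coding genes was 52.6%.

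Many of these other calls lay at later starts of the same gene. RefSeq lists several starts for 36 of the 246 genes, and a further listed start away from the gene end can also be the sole one with a sequence window. With these starts included, 23 of the 106 uncalled genes had a call at a listed start (21.7%, 14.9 to 30.5%), which brought the number with a start call to 163 of 246 (66.3%), where the share over all protein-coding genes was 45.3%, with 34 of 83 on 19p (41%) and 129 of 163 on 19q (79.1%). ZNF331, an imprinted gene, was called at 53521029, 15 bp downstream of a listed start that lies 17.8 kb into the gene. ZNF420, ZNF599, ZNF567 and ZNF444 were called at starts 70.5, 34.4, 20.7 and 8.73 kb into the gene, and ZNF302 was called on the exact base of a start 1.70 kb in. The gene end used by the main rule is thus the outermost annotated base, and for these genes the called start was an inner one.

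Cluster 19q-1 (34.7 to 35 Mb) was small, with 5 genes. ZNF181 was called 10 and 341 bp inside its end, with a divergent partner at 133 bp, and ZNF792 was called 53 bp outside. ZNF302, ZNF599 and ZNF30 were not called at an end, but each had at least 1 call in or near the gene.

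Cluster 19q-2 (36.2 to 37.8 Mb) held 26 genes, 7 of them with several calls at an end. ZNF146, whose protein consists of little besides zinc fingers, was called on its first base and 414 bp inside. ZNF461 and ZNF850 were also called on their first base, and ZNF461 had a second call 361 bp outside. ZNF566 had calls 41 bp inside and 300 bp outside, ZNF260 3 bp inside and 400 bp outside, and ZNF383 33 bp inside and 324 bp outside. ZNF382 had calls 1 and 368 bp outside, and ZNF573, the last gene, 1 and 309 bp outside. The call farthest from its end in this cluster was that of ZNF529, 286 bp inside. ZNF565, ZNF567, ZNF345 and ZNF420 were the first uncalled genes, each with at least 2 calls in or near the gene. Some of these calls are starts of neighbours. The calls in ZNF565 are those of ZNF146, which lies within its bounds, and calls of ZNF461 and ZNF790 are among those counted for ZNF567 and ZNF345.

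Cluster 19q-3 (43.5 to 44.5 Mb) had the longest run of called ZNF genes, 8 in a row from ZNF45 to ZNF224. ZNF224 (position 44094361) and ZNF227 were called on their first base, and ZNF223 was called farthest from it, 434 bp inside. ZNF428 was called 137 bp inside and 245 bp outside. ZNF180, the last gene, was called 18 bp outside and 331 bp inside. ZNF575, ZNF404, ZNF225 and ZNF233 were the first uncalled genes, and ZNF225 had a call 8 bp downstream of a listed start 1.97 kb into the gene.

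Cluster 19q-4 (51.6 to 53.6 Mb) holds several known repressors of retroelements, and all its start calls lay within 40 bp of an end, leaving aside a second call of ZNF701. ZNF808 (position 52527668), ZNF611 (position 52735044), ZNF888 and ZNF845 were called on their first or outermost annotated base, and ZNF649 (position 51905018) 1 bp outside it. The call farthest from its end was that of ZNF614, 40 bp inside. ZNF701 had a second call, 404 bp inside. ZNF175, the first gene, and ZNF432, ZNF836 and ZNF610 were the first uncalled genes, of which ZNF836 was without any call.

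Cluster 19q-5 (55.5 to 56.7 Mb) had the gene with most start calls. ZNF524 was called 156 bp inside, 316 bp outside and 446 bp inside its end. ZNF865, ZNF784 and ZNF71 were called 1 bp outside their ends, ZNF628 4 bp inside and ZNF583, the farthest, 318 bp inside. ZNF787 had calls 27 bp inside and 226 bp outside, and ZNF581 was called 58 bp inside. ZNF580, a gene that lies within the bounds of ZNF581, was called 73 bp outside its start, and a reverse call lay 392 bp inside its other end. ZNF579, ZNF444, ZNF667 and ZNF471 were the first uncalled genes, and ZNF835 closed the cluster without any call.

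Cluster 19q-6 (57.2 to 58.5 Mb) was the largest, with 43 genes. ZNF587 (position 57849859) and ZNF417 (position 57916613), known repressors of the HERV-K family of endogenous retroviruses, were called on the first base and 21 bp outside the gene. ZNF547, ZNF773, ZNF776 and ZNF552 were also called on the end base, and ZNF549 was called farthest from it, 85 bp inside. ZNF274, which is known to bind the 3' ends of zinc finger genes and to recruit the methyltransferase SETDB1 there, was called 1 bp outside and 362 bp inside. ZNF460 was called 2 and 484 bp inside, ZNF544 5 bp inside and 487 bp outside, ZNF497 80 bp outside and 246 bp inside, and ZNF837 1 bp outside and 303 bp inside. ZNF264 opened the cluster with a call 41 bp inside and ZNF446 closed it with a call 16 bp outside. ZNF548, ZNF17, ZNF749 and ZNF772 were the first uncalled genes, and ZNF749 had a call on the exact base of a listed start 6.76 kb into the gene.

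Outside the clusters 10 of 14 genes were called (71.4%). They were ZNF557 (5 bp inside and 259 bp outside), ZNF333 (455 bp inside), ZNF507 (1 bp outside), ZNF546 (71 bp inside), ZNF780B (13 bp inside), ZNF780A (1 bp outside and 279 bp inside), ZNF526 (37 bp inside), ZNF296 (3 bp outside), ZNF541 (3 bp inside) and ZNF473 (1 bp outside). ZNF541, which is known for its role in male meiosis, was thus called in erythroid cells. ZNF536, a regulator of neuronal differentiation, and ZNF358 had no call in or near the gene. ZNF574 was called at a listed start 7.69 kb into the gene, and ZNF114 had 1 call away from its ends.

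Over all 140 called genes the call nearest to the annotated end lay at a median of 0 bp from it, with quartiles 1 bp outside and 28.5 bp inside. For the other protein-coding genes with a called start the median was 4 bp inside. Within 10 bp of the end lay 75 of the 140 calls (53.6%, 45.3 to 61.6%), against 45.8% for other genes, and within 50 bp lay 118 (84.3%, 77.4 to 89.4%), against 77.5%. Of the calls 32 were exactly 1 base outside the annotated end (22.9%, 16.7 to 30.5%), against 16.8% for other genes, with 3 of 29 on 19p (10.3%) and 29 of 111 on 19q (26.1%). The strand was listed for 127 of the called genes, and in all 127 a call lay at the 5' end. Taking for each gene the call nearest to its end, those closest to the 500 bp limit were ZNF223 (434 bp) and ZNF333 (455 bp) within it and ZNF345 (520 bp), ZNF606 (525 bp) and ZNF101 (685 bp) beyond it, all inside the gene. Of the called genes 117 had 1 call at an end, 22 had 2 and 1 had 3. Several calls were thus found in 23 of 140 (16.4%), close to the 15.4% over all called protein-coding genes. Calls of the same strand lie at least 251 bp apart in the deposited set, so closer second starts could not be seen.

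**Figure D3:**
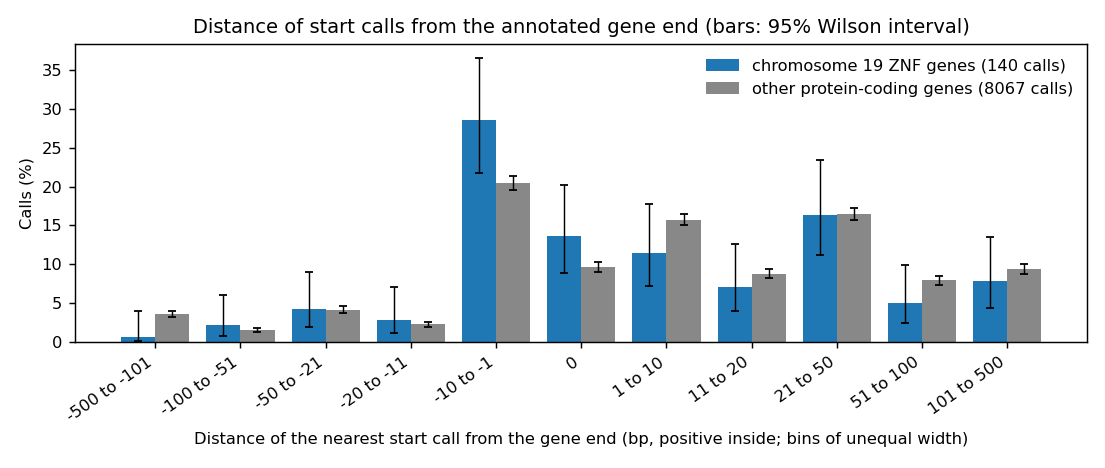
Distance of the nearest start call from the annotated gene end (horizontal axis, bp, positive inside the gene) as percent of called genes in bins of unequal width, with 95% Wilson intervals as error bars, for the 140 called ZNF genes and the 8067 other called protein-coding genes. The bin from 10 to 1 bp outside the end holds 28.6% of the ZNF calls, and the end base itself 13.6%.

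The base at which these calls fall can be read where a promoter window covers it, which was so for 103 calls. In 44 of them (42.7%, 33.6 to 52.4%) the called base and the next one downstream were CA, the core of the initiator element, in which transcription classically begins at the A. The share for other protein-coding genes was 36.9% (1874 of 5083 calls). With the base before the call and the called base, CA was found in 4 of 103 calls (3.88%), and in 1.24% for other genes. The shares were alike on the plus strand (23 of 55, 41.8%) and the minus strand (21 of 48, 43.8%). The deposited positions therefore often lie 1 base upstream of the A of a CA. Positions are printed as deposited, the look at the next base was chosen after the values were seen, and the cause of the offset was not tested.

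The related genes of cluster 19q-4 are set out here because their start windows have much the same letters. Each line gives 30 bases around the call on the gene's strand (RefSeq, GRCh38.p14), with the called base and the next one in capitals. The windows are ZNF468 (chr19:52857611-52857640, minus strand), ZNF765 (chr19:53395128-53395157, plus), ZNF761 (chr19:53431963-53431992, plus), ZNF701 (chr19:52570266-52570295, plus), ZNF845 (chr19:53333729-53333758, plus), ZNF611 (chr19:52735035-52735064, minus), ZNF808 (chr19:52527648-52527677, plus) and ZNF813 (chr19:53467714-53467743, plus).
ZNF468: cctgcgcgcgcagattcgcgCAgaccagga
ZNF765: cctgcgcgcgcagcttcgcgCAgacccgga
ZNF761: tctgcgcgcgcagattcgtgCAgaccagga
ZNF701: cctgtgcgcacacatccgcgCAgaccagga
ZNF845: ctgcgcgcgcagattcgcgcAAacccggaa
ZNF611: ctgcgcgcgcagattaacgcAAacccggaa
ZNF808: ctgcgcgcggagattaacgcAAacccggaa
ZNF813: cctggcttctgtcctgcgcgCAgattcgcg

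In ZNF468, ZNF765, ZNF761 and ZNF701 the pair was CA and the call lay 1 bp outside the annotated end. In ZNF845, ZNF611 and ZNF808, whose windows have much the same letters, the pair was AA, the base before it was C and the call lay on the annotated end base. With ZNF83 of the same cluster these were the 4 calls whose base fell on the A of a CA. ZNF808 and ZNF611, on opposite strands, were thus called within nearly the same run of letters. ZNF813, which shares words with ZNF765 and ZNF845, was called at another CA, 1 bp inside its annotated end.

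Divergent transcription, in which a promoter also starts an RNA in the opposite direction, was less frequent here than over all genes. A divergent partner was the nearest call of the other strand up to 300 bp upstream. Of the 140 called ZNF genes 53 had one (37.9%, 30.2 to 46.1%), where the share over all called protein-coding genes was 50.7%. Other called genes of chromosome 19 had one in 41.2% of cases (37 to 45.4%) and called ZNF genes of other chromosomes in 53.9% (46 to 61.7%). The distance to the partner had a median of 133 bp (quartiles 92 and 164, from 28 to 297 bp), and 154 bp for other protein-coding genes. A call of the other strand up to 300 bp downstream was found for 11 of 140 genes (7.86%), against 8.12% for other genes.

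Partners were spread unevenly over the clusters. A partner was found for 13 of 19 called genes in 19q-2 (68.4%, 46 to 84.6%), 8 of 17 in 19q-3 (47.1%), 4 of 10 in 19q-5, 7 of 30 in 19q-6 (23.3%, 11.8 to 40.9%) and 2 of 25 in 19q-4 (8%, 2.22 to 25%). The intervals of 19q-2 and 19q-4 did not overlap. On 19p it was 5 of 8 in 19p-2, 5 of 10 in 19p-3 and 0 of 7 in 19p-4 (interval up to 35.4%). The exceptions in 19q-4 were ZNF766, with a partner at 152 bp, and ZNF83, with one at 181 bp.

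Matched to gene ends, partners led into another ZNF gene at 3 facing pairs of genes. ZNF490 and ZNF791 in 19p-3 had starts 122 bp apart, ZNF529 and ZNF382 in 19q-2 55 bp apart, and ZNF829 and ZNF568 in 19q-2 251 bp apart. In 3 further genes the partner was the start of another protein-coding gene, namely ECSIT for ZNF653 (209 bp), DEDD2 for ZNF526 (221 bp) and FIZ1 for ZNF524 (232 bp). In 7 it was the start of a noncoding gene, such as ZNF566-AS1 (106 bp from ZNF566), ZNF460-AS1 (115 bp from ZNF460), ZNF582-DT (137 bp from ZNF582) and ZNF230-DT (172 bp from ZNF230). For the other 37 of 53 genes (69.8%) the partner did not point into an annotated gene from within 500 bp of its end. Listed starts further inside a gene were not matched in this count. The partner of ZNF790 was the call at a listed start 0.511 kb into ZNF345. That of ZNF571 was the call at a listed start 43.5 kb into ZNF540.

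Inside the gene bodies, more than 500 bp from either end, 51 of the 246 ZNF genes had calls (20.7%), and the share over all protein-coding genes was also 20.7%. Where the strand was listed these were 90 calls, 45 on the sense and 45 on the antisense strand. Some of them are start calls or partners of other genes within the same bounds, such as ZNF146 inside ZNF565 and ZNF700 inside ZNF69. Others lie at the later listed starts given above. The count by strand therefore does not describe starts of the ZNF genes' own bodies alone.

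Promoter sequence was read for the 179 ZNF genes with a RefSeq window at the gene end, beside 13613 other protein-coding genes. The CpG observed over expected ratio compares the number of CG dinucleotides with that given by the C and G content, and low values mark promoters that have lost CpGs. Its median was 0.76 over the ZNF genes and 0.77 over the others. It was 0.58 on 19p and 0.82 on 19q, and 0.43 over the 24 windows of 19p-4. Called genes had higher medians than uncalled ones on 19p (0.68 and 0.48, 28 and 32 genes), on 19q (0.82 and 0.73, 90 and 29 genes) and among other protein-coding genes (0.88 and 0.50).

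Within bands of this ratio the arms were closer. Over all genes with such a window the share called was 46.7% on 19p and 75.6% on 19q. Below 0.6 it was 10 of 32 on 19p (31.2%) and 6 of 11 on 19q (54.5%). From 0.6 to 0.8 it was 13 of 22 (59.1%) and 30 of 40 (75%). From 0.8 upward it was 5 of 6 (83.3%) and 54 of 68 (79.4%). The interval of the difference included 0 in each of the 3 bands, with few genes on 1 arm or the other. Against other protein-coding genes of the same band, ZNF genes were called in 16 of 43 cases below 0.6 (37.2%, against 10.2%), in 43 of 62 from 0.6 to 0.8 (69.4%, against 52.6%) and in 59 of 74 above (79.7%, against 69.9%). The bands were chosen after the values were seen.

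**Figure D4:**
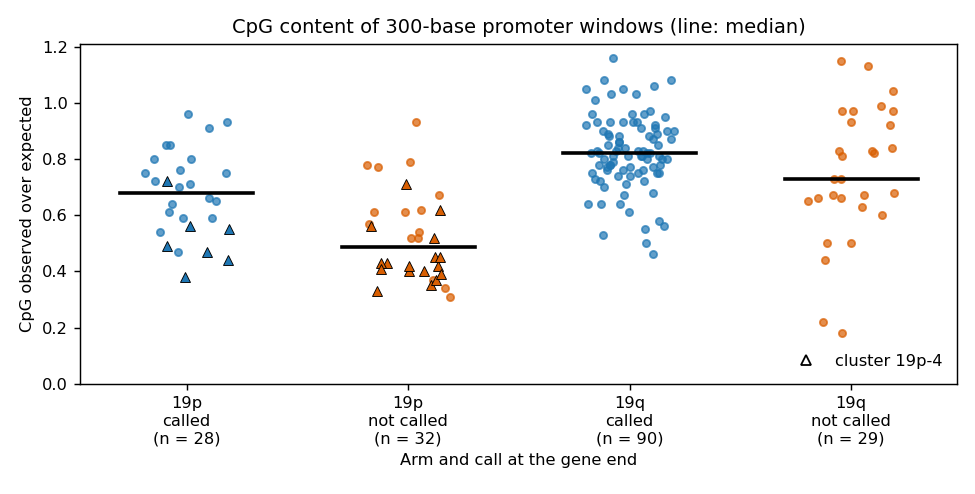
CpG observed over expected in the promoter windows of ZNF genes (vertical axis, a ratio) by arm and by whether the start was called, 1 point per gene with the median as a line and cluster 19p-4 as triangles. Medians are 0.68 and 0.48 for called and uncalled genes on 19p and 0.82 and 0.73 on 19q.

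The windows were searched on both strands for 9 short motifs. A match describes the letters and is not a measured binding site. CCGGAAG, the core of sites for ETS factors, stood in 45.3% of the ZNF windows and in 14.2% of other protein-coding windows, and in 45.8% of called and 44.3% of uncalled ZNF genes. That likeness comes from pooling the arms, since on 19p it stood in 21.4% of called and 46.9% of uncalled genes and on 19q in 53.3% and 41.4%. The clusters of 19p differed too, with the motif in 17 of 24 windows of 19p-4, where few genes were called. In the rest of 19p it stood in 4 of 36 windows (11.1%). Other protein-coding genes had it in 24.6% of called and 5.26% of uncalled cases. CCAAT, the core of NF-Y sites, stood in 53.6% (other genes 36.9%), and in all 24 windows of 19p-4. GGGCGG, a GC box, stood in 65.4% (other genes 58.4%). Among other genes GGGCGG stood in 74.4% of called and 44.7% of uncalled cases, against 60.2% and 75.4% of ZNF genes, so called ZNF genes had it less often than other called genes. By arm, CCAAT stood in 67.9% of called and 100% of uncalled ZNF genes on 19p, and in 41.1% and 27.6% on 19q. GGGCGG stood in 71.4% of called and 90.6% of uncalled ZNF genes on 19p, and in 56.7% and 58.6% on 19q. The TATA box, TATAAA, stood in 2.79% (other genes 10.1%). Among called genes the shares were 4.24% and 5.15%, and among uncalled genes 0 of 61 ZNF windows and 14.4% of other windows held it. AAGATGGC, the core of YY1 sites, stood in 7.82% (other genes 4.06%), TGACGTCA, the cAMP response element, in 3.91% (2.68%), the NRF1 palindrome in 3.35% (1.82%) and the palindrome that begins with TCTCG in 1.12% (0.705%).

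Several of the rarer motifs were found mostly in called ZNF genes, with AAGATGGC in 13 of 118 called and 1 of 61 uncalled genes, TGACGTCA in 7 and 0, and TATAAA in 5 and 0. The NRF1 palindrome was an exception, with 3 called and 3 uncalled genes (2.54% and 4.92%). For AAGATGGC the intervals of called and uncalled genes overlapped (6.55 to 17.9% and 0.290 to 8.72%), as they did for TGACGTCA and TATAAA. ZNF708, ZNF429 and ZNF675, which have TATAAA, all lie in 19p-4. Other protein-coding genes had AAGATGGC in 7.27% of called and 1.32% of uncalled cases, and TGACGTCA in 3.95% and 1.59%. Of the 7 ZNF genes with TGACGTCA, 5 lay in cluster 19p-2. The ZNF143/THAP11 motif, 11 letters of the composite sites known for these factors, stood in 16 of 179 ZNF windows (8.94%, 5.58 to 14%) and in 168 of 13613 other windows (1.23%). Of the 118 called genes 15 had it (12.7%), and of the 61 uncalled genes 1, ZNF470 (1.64%). Among other protein-coding genes it stood in 2.09% of called and 0.504% of uncalled cases. By cluster it was found in 8 of 16 windows of 19q-3 (interval 28 to 72%), in 5 of 20 of 19q-2 (25%, 11.2 to 46.9%) and in none of the 29 windows of 19q-4 or the 33 of 19q-6. Its last letters can overlap a CCGGAAG match on the other strand.

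The matches of cluster 19q-3 and that of ZNF470 are shown because they recur in neighbouring genes. Each line has 31 bases of the RefSeq window (GRCh38.p14) on the gene's strand, with the match in capitals, in either orientation. They are ZNF283 (chr19:43827249-43827279, plus strand), ZNF45 (chr19:43935294-43935324, minus), ZNF230 (chr19:44002832-44002862, plus), ZNF284 (chr19:44071933-44071963, plus), ZNF224 (chr19:44094255-44094285, plus), ZNF234 (chr19:44141523-44141553, plus), ZNF235 (chr19:44305090-44305120, minus), ZNF180 (chr19:44500552-44500582, minus) and ZNF470 (chr19:56567418-56567448, plus).
ZNF283: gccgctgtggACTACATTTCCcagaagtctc
ZNF45: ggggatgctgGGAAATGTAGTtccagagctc
ZNF230: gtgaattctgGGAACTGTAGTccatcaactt
ZNF284: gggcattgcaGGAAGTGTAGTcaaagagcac
ZNF224: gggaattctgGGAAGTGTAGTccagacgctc
ZNF234: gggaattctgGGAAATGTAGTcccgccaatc
ZNF235: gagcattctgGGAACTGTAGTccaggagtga
ZNF180: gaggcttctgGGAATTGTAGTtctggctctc
ZNF470: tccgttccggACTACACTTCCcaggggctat

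All 8 genes of 19q-3 in this set were called, beside 17 of 23 genes of the whole cluster (73.9%, 53.5 to 87.5%). The 8 genes are neighbours and not independent observations. The others with the motif were ZNF317, ZNF260, ZNF850, ZNF790, ZNF568, ZNF573 and ZNF546, all called.

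**Figure D5:**
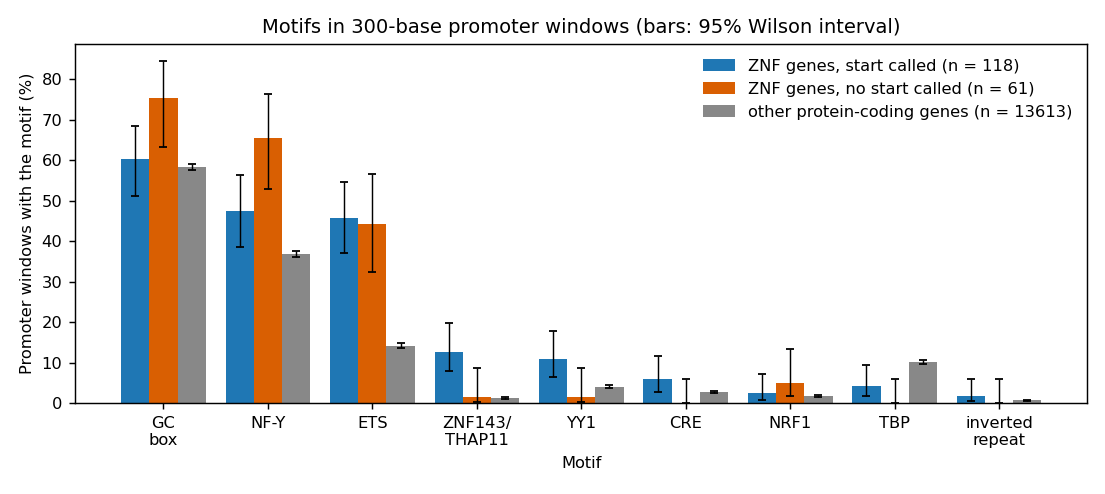
Percent of 300-base promoter windows with each motif, named by the factor or element it is known for, in called ZNF genes (118 windows), uncalled ZNF genes (61) and other protein-coding genes (13613), with 95% Wilson intervals. The ETS motif stands near 45% in both ZNF groups and at 14.2% in other genes, and the ZNF143/THAP11 motif at 12.7% in called ZNF genes.

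The partners of KRAB zinc finger proteins in silencing were called by the same rule in 14 of 20 cases (70.0%, 48.1 to 85.5%), beside 41.4% over all protein-coding genes. Among them were TRIM28, itself on chromosome 19 and called on its end base, the heterochromatin proteins CBX3 and CBX5, the HUSH subunits TASOR, MPHOSPH8 and PPHLN1 with the associated MORC2, and the SETDB1 partner ATF7IP. The others called were CHD4, HDAC1, HDAC2, SMARCAD1, DNMT1 and TRIM24. SETDB1, CBX1, CHD3, UHRF1, DNMT3A and DNMT3B had no call at an end, and of these SETDB1 and DNMT3B had none in or near the gene. As a check of the cell type, all 8 erythroid markers were called (GATA1, KLF1, ALAS2, TFRC, EPOR, AHSP, SLC4A1 and HBB), and none of the 4 megakaryocyte, 4 myeloid and 4 lymphoid markers was. Of the markers not called, the myeloid SPI1 had 1 call in or near the gene and the others had none.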

How the data were processed

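PRO-cap libraries of nuclear RNA came from 2 biological replicates of 1 group, wild-type HUDEP-2 cells. Tools named in the submitters' processing notes are deepTools 3.5.4, SAMtools 1.17, Picard and BWA 0.7.16a, with the build hg38. The calling threshold and how replicates were combined could not be learned from the labels. The authors deposited 1 list of start positions per strand, whose score is 0 for every call, so depth is unknown. The third column of each list, the 1-based position, was used as deposited. The position values are of another kind than a measured level.

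Genes and promoter windows came from RefSeq (GRCh38.p14). Strand and windows matched 216 of the 246 genes, 179 of them at the gene end. Members before 26 Mb were taken as 19p. Analysis used Python 3.11.15, pandas 2.3.3, numpy 2.4.6, statsmodels 0.14.6 and matplotlib 3.10.9. The design has 1 group, so no test between samples was possible, and shares carry 95% Wilson and differences 95% Newcombe intervals. The genes, lists, motifs and definitions were chosen with earlier results of these data known. Genes were named by rule. In each cluster these were the first and last gene, those with calls nearest to and farthest from the end, those with several calls, and the first 4 uncalled genes (all, if 5 or fewer). Facing pairs, called genes outside clusters and 17 chosen genes were added, and further genes were named after their values were seen. Alternatives were other windows (200 and 1000 bp), partner distances (150 and 500 bp) and cluster gaps (250 kb and 1 Mb), 5' ends alone, nearest ends alone, any call in or near the gene, other symbols and genes without shared promoter words. The planned count of zinc fingers and KRAB boxes was not run, since protein sequences were not used here. As a check of the code, simulated starts were planted within the 500 bp window at a random end of some genes. All were found, which was fixed by that design. Of the other genes 3.20% were found with a neighbour's call, and this is not a rate of stray calls in the deposited set.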

Additional observations from a re-analysis of the deposited data

How the results depend on the processing

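Of 111 alternative values, 99 kept close to the value reported (within its interval, its quartiles or, for the number of clusters, 1.5 times of it), 11 moved further and 1 reversed. Most of these, 80, were shares of single clusters, of which 74 stayed within their interval. Such intervals are wide in small clusters (11.8 to 76.9% for 19p-1, with 5 genes), so this tally says little about them. The share of ZNF genes with a called start stayed between 54.1% and 60.4% under other windows, ends, symbols and sets of genes. It was 71.5% when a call anywhere in or near the gene was enough, and it was 66.3% with listed transcript starts added, an alternative chosen after seeing the data. The difference between 19p and 19q (19p minus 19q, in points) stayed between -42.5 and -24.7 under these settings. Chosen after seeing the data, it was -20.3 without cluster 19p-4, -23.3 for CpG observed over expected below 0.6 (32 of the 60 genes on 19p with a window), -15.9 from 0.6 to 0.8, -15.6 among genes without a shared promoter word, and reversed to 3.92 in the band from 0.8 upward, which holds 6 genes on 19p. The share with a divergent partner was 23.6% within 150 bp and 42.9% within 500 bp, against 37.9%. A gap of 250 kb gave 12 clusters and one of 1 Mb gave 9, in place of 10. No paired analysis was possible because the calls name no replicate, and for the same reason no replicate could be left out. A gene without a call may be transcribed below the unknown threshold of calling, and no strength of a call was available.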
